A study of Mus musculus with 12 samples.

Results

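The genes described here are 10 members of the circadian clock and its direct output: Per1, Per2, Per3, Dbp, Tef, Nr1d1, Nr1d2, Arntl (also called Bmal1), Npas2 and Cry1. They were chosen by name with earlier results of these data known, and each has at least 1 probe set annotated to it alone. Counts of members set beside shares of all genes are therefore descriptions. The members are 10 of the 18194 genes that have such a probe set, and 23 probe sets measure them. For each gene the probe set with the highest mean was used, and all 10 passed, on all 12 arrays, the level that left 11984 genes for testing.

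The samples were whole ears of mice homozygous for the Spade allele (Spade/Spade) and of wild-type littermates, aged 2, 4 and 6 weeks. Spade is known from the published study of this line as an activating mutation of Jak1, a kinase that couples cytokine receptors to STAT transcription factors. The labels name no transgene, Cre or treatment for either genotype. Each of the 6 groups has 2 samples, and total RNA of each was measured on its own Affymetrix Mouse Genome 430 2.0 array. The labels give neither the sex of the animals nor the hour at which ears were taken.

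The circadian clock is a feedback loop that most cells run. ARNTL, paired with CLOCK or its relative NPAS2, binds E-box sequences and switches on the Per, Cry, Nr1d and PAR bZIP genes (Dbp, Tef and Hlf). PER and CRY proteins then inhibit ARNTL, NR1D1 and NR1D2 repress Arntl and Npas2 through ROR elements, and DBP and TEF act on D-box sequences, where NFIL3 opposes them. In mouse peripheral tissues Dbp, Nr1d1 and Per3 are known to peak in the daytime, Arntl and Npas2 in nearly the opposite phase, and Cry1 later than the Per genes. Skin runs such a clock in epidermis, dermis and hair follicles.

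The promoter stretches below are shown because they hold motifs that factors of the loop are known to bind, and a match is a description, not a mapped site. Each is RefSeq sequence of the mouse build GRCm38.p6, printed 5′ to 3′ on the strand of the gene, with the matched motif in capitals. All 250 bases before each annotated start were searched on both strands for the E-box CACGTG, the D-box TTATGTAA or TTACGTAA, and the ROR element core TAGGTCA or TGGGTCA. The table held 12 such stretches for 9 members (2 each for Per1, Tef and Arntl) and none for Per2. Per3 has 2 D-boxes in its stretch, at chr4:151044666-151044915 on the minus strand, 205 and 158 bases before the start. The E-boxes of Cry1, Per1 and the 2 starts of Tef lie 60, 166, 127 and 138 bases before the start.
Per3 (D-boxes, chr4:151044666-151044915, minus strand): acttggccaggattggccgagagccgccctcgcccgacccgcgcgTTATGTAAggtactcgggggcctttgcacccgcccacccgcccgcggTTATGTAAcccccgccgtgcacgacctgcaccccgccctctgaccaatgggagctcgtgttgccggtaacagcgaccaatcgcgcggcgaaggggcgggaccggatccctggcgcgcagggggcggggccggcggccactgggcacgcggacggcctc
Cry1 (E-box, chr10:85185079-85185144, minus strand): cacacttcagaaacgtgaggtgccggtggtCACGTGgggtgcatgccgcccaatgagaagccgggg
Per1 (E-box, chr11:69098753-69098818, plus strand): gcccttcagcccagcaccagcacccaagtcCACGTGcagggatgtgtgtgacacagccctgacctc
Tef, upstream start (E-box, chr15:81802516-81802581, plus strand): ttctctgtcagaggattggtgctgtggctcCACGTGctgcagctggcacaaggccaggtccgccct
Tef, downstream start (E-box, chr15:81811246-81811311, plus strand): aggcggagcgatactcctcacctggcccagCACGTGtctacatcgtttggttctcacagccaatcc

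Among the 32851 promoter stretches of the table, 6.02% held the E-box, 0.931% a D-box and 5.38% a ROR element core. The E-box was found for 3 of the 9 members, a D-box for 1 and a ROR element core for none, with no overlapping matches. The stretches of Dbp, Nr1d1, Nr1d2, Npas2 and Arntl held none of these letters, which says nothing of sites elsewhere in those genes.

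Between 52.3% and 58.1% of the 45101 probe sets of an array were called present, and all 7 keratinocyte and all 11 muscle markers were present on all 12 arrays. The correlation between replicates across genes was 0.985 or higher in 5 groups, while for 2-week mutants it was 0.939. That pair held an array apart from the rest: 2-week mutant replicate 3 had a mean muscle marker level of 10.52 (12.94 to 13.95 on the other 11 arrays) and a mean hair shaft level of 11.51 (at most 5.80 elsewhere). For age differences from 2 weeks, and genotype differences at 2 weeks or on average, values without it are given for members' main probe sets. Other probe sets of members are given with all arrays. Calls between ages are given both ways for the lists of other clock, clock-controlled, glucocorticoid-induced and immediate early genes. Among cell type markers this holds only for the keratinocyte and fibroblast genes named. The labels also give each array a number, and all 2-week arrays lie in the range 23 to 27, so age 2 weeks and this number range cannot be told apart. The hour at which ears were taken is not given either. For genes with a daily rhythm, differences between ages or other groups therefore cannot be told apart from differences of hour. Whether the 2 samples of a group came from different animals is not said in the labels, so p-values cover the spread of these arrays, which may be technical, and their number limits precision. In whole ear, fewer cells of a type and less RNA per cell cannot be told apart.

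Members passed the test between ages. Levels are log2 GCRMA values, listed in order of replicate number, and levels of different probe sets are not comparable with each other. Dbp, the D-box activator whose transcript follows ARNTL activity closely, stood at 10.79 and 10.48 in 2-week wild type and at 10.58 and 9.48 in 2-week mutants. It stood at 11.99 and 12.60 in 4-week wild type, 13.36 and 13.04 in 4-week mutants, 13.47 and 13.27 in 6-week wild type and 12.60 and 12.75 in 6-week mutants. All 4 arrays of 2 weeks lay below all 8 later arrays. Averaged over genotypes, Dbp rose 5.34-fold from 2 to 4 weeks (log2 2.42 ± 0.23, SE, 4 arrays per age, limma adjusted p = 0.0023) and 6.45-fold from 2 to 6 weeks (2.69 ± 0.23, adjusted p = 0.00067). Without 2-week mutant replicate 3 the log2 differences were 2.14 and 2.42.

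Per3, the Per paralogue with the 2 promoter D-boxes printed above, stood at 7.28 and 6.75 in 2-week wild type, 6.91 and 5.77 in 2-week mutants, 7.84 and 9.04 in 4-week wild type, 8.56 and 8.64 in 4-week mutants, 9.18 and 9.31 in 6-week wild type and 9.09 and 9.23 in 6-week mutants. Its arrays were ordered by age with no overlap, the 4-week arrays between 7.84 and 9.04 and the 6-week arrays all above them. It rose by 1.84 ± 0.30 from 2 to 4 weeks (limma adjusted p = 0.012) and by 2.52 ± 0.30 from 2 to 6 weeks (adjusted p = 0.0016), or 1.56 and 2.24 without 2-week mutant replicate 3. Without 2-week wild-type replicate 2 the rise to 4 weeks was 1.71 with an adjusted p = 0.057 in limma.

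Tef, another PAR bZIP activator, was also ordered by age on its main probe set. It stood at 10.39 and 10.33 in 2-week wild type, 10.03 and 9.19 in 2-week mutants, 10.52 and 11.05 in 4-week wild type, 11.07 and 10.91 in 4-week mutants, 11.38 and 11.49 in 6-week wild type, and 11.26 and 11.28 in 6-week mutants. The rise was 0.90 ± 0.18 to 4 weeks (limma adjusted p = 0.020) and 1.37 ± 0.18 to 6 weeks (adjusted p = 0.0022), or 0.69 and 1.16 without 2-week mutant replicate 3. A second Tef probe set went the other way and also passed, with -1.57 ± 0.35 from 2 to 6 weeks (adjusted p = 0.015), so the direction of Tef depends on which probe set is read. The call to 4 weeks was lost on leaving out 2-week wild-type replicate 1 or 2, 4-week wild-type replicate 3 or 4-week mutant replicate 1 or 2, where values ran from 0.77 to 0.94 and adjusted p in limma reached at most 0.0805.

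**Figure D1:**
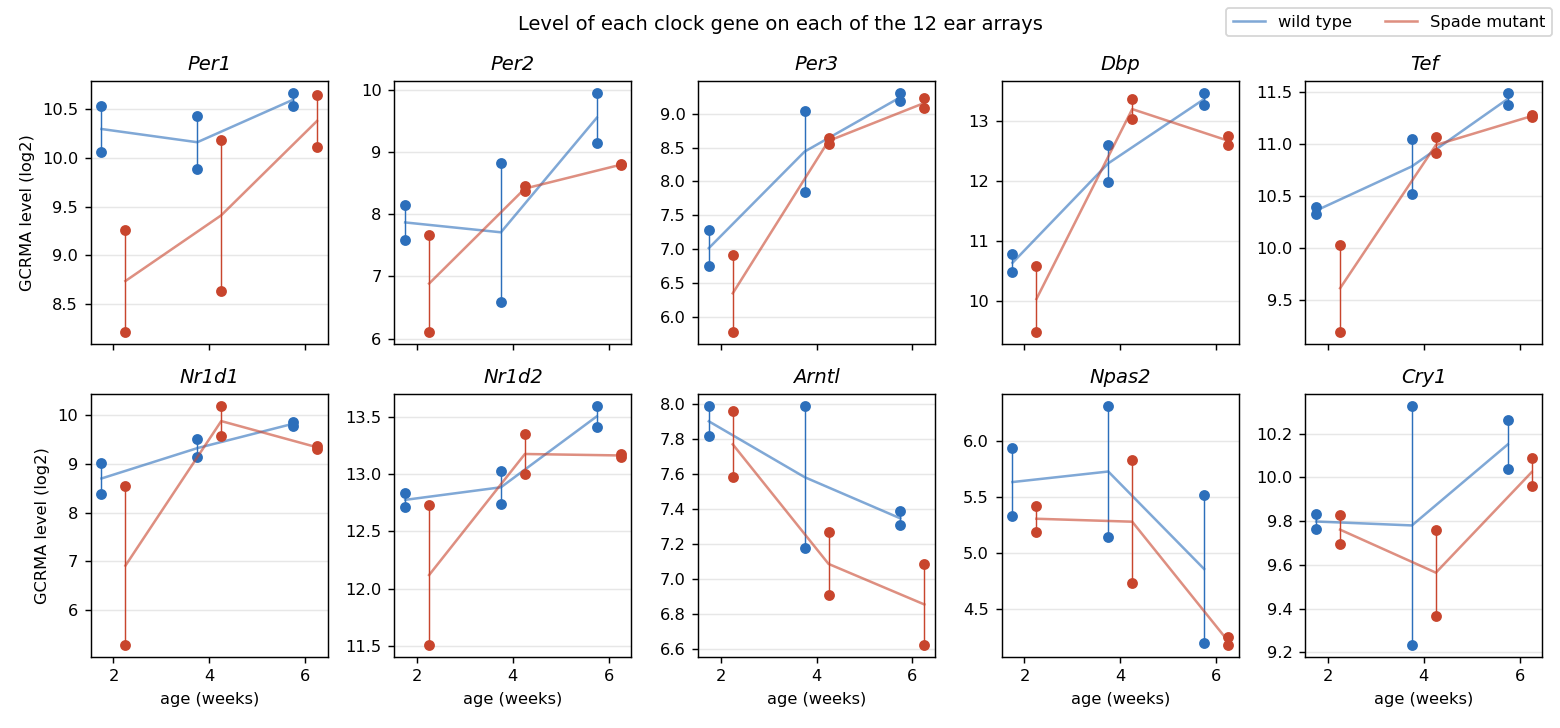
Level of each clock gene (log2 GCRMA value, vertical axis, own scale in each panel) against age in weeks. Points are arrays, slightly offset by genotype, vertical lines join the 2 replicates and sloping lines join group means; Dbp at 2 weeks lies between 9.48 and 10.79, below all later arrays, while Arntl at 6 weeks lies between 6.62 and 7.39, below all 2-week arrays.

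From 2 to 4 weeks these 3 genes were the members called, all upward, or 3 of 10 beside 6.83% of all tested genes called upward, 2.7% downward and 9.53% in either direction. From 2 to 6 weeks 6 of 10 members were called, 5 up and 1 down, beside 24.1% of tested genes in either direction, 17.7% up and 6.35% down. The median log2 difference of the 10 members over that interval was 1.17, and that of all tested genes 0.11. Arrays of 6 weeks lay wholly above those of 2 weeks for 7 members, all but Per1, Arntl and Npas2, beside 18.5% of tested genes. Arntl was the member that lay wholly below, beside 7.08% of tested genes. Without 2-week mutant replicate 3, 4 members were called from 2 to 4 weeks (Nr1d1 in addition), beside 13% of tested genes, and 6 from 2 to 6 weeks, with Nr1d1 and without Per2, beside 26.1%. At 4 weeks Dbp, Per3, Tef and Nr1d1 lay wholly above 2 weeks, 4 of 10 beside 13.6%, and none wholly below, beside 5.02%. From 4 to 6 weeks no member passed in limma, and 0% of tested genes did (1025 at an unadjusted p under 0.05, among them Tef at 0.46 ± 0.18 and Npas2 at -0.96 ± 0.38). Per3 and Tef lay wholly above in that interval, 2 of 10 beside 3.52%, and none wholly below, beside 1.7%.

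Per2, a core inhibitor of ARNTL whose transcript also responds to hormones and stress, stood at 8.14 and 7.59 in 2-week wild type, 7.66 and 6.11 in 2-week mutants, 6.60 and 8.82 in 4-week wild type, 8.45 and 8.38 in 4-week mutants, 9.95 and 9.15 in 6-week wild type and 8.79 and 8.80 in 6-week mutants. The ages 2 and 6 weeks did not overlap, and 4-week wild type spanned most of the range by itself. A second Per2 probe set, with levels of 4.36 to 5.22, differed by -0.18 ± 0.17 from 2 to 6 weeks and did not pass. On the main probe set the rise from 2 to 6 weeks was 1.79 ± 0.49 (limma adjusted p = 0.030). Without 2-week mutant replicate 3 it was 1.41 and did not pass (limma adjusted p = 0.064), and it also lost its call without either 2-week wild-type array or any 1 of the 4 arrays of 6 weeks, with values of 1.60 to 1.99 and adjusted p in limma of at most 0.10. Per1, the Per gene that responds fastest to hormones and light, stood at 10.53 and 10.05 in 2-week wild type, 9.26 and 8.22 in 2-week mutants, 9.89 and 10.43 in 4-week wild type, 8.64 and 10.18 in 4-week mutants, 10.52 and 10.66 in 6-week wild type and 10.64 and 10.11 in 6-week mutants. The ages overlapped, and the difference from 2 to 6 weeks was 0.97 ± 0.35 without passing (limma adjusted p = 0.077), or 0.71 without 2-week mutant replicate 3.

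Nr1d1 and Nr1d2 encode the nuclear receptors REV-ERB alpha and beta, which repress Arntl. Nr1d1 stood at 9.02 and 8.38 in 2-week wild type, 8.54 and 5.28 in 2-week mutants, 9.50 and 9.14 in 4-week wild type, 10.19 and 9.57 in 4-week mutants, 9.79 and 9.86 in 6-week wild type and 9.31 and 9.37 in 6-week mutants. The value of 5.28 in 2-week mutant replicate 3 was far below the rest, and Nr1d1 was called present on 11 of 12 arrays. With that array the difference from 2 to 6 weeks was 1.78 ± 0.58 (limma adjusted p = 0.053). Without it the difference was smaller but passed, at 0.96 ± 0.20 (limma adjusted p = 0.013). Nr1d2 stood at 12.84 and 12.71 in 2-week wild type, 12.73 and 11.51 in 2-week mutants, 12.74 and 13.03 in 4-week wild type, 13.35 and 13.00 in 4-week mutants, 13.60 and 13.42 in 6-week wild type and 13.18 and 13.15 in 6-week mutants. The ages 2 and 6 weeks did not overlap, and the rise was 0.89 ± 0.23 (limma adjusted p = 0.025), or 0.58 without 2-week mutant replicate 3. That call was lost without either 2-week wild-type array or any 1 of the 4 arrays of 6 weeks (limma adjusted p at most 0.080), and a second Nr1d2 probe set gave -0.47 ± 0.30.

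Arntl and Npas2 had negative differences from 2 to 6 weeks. Arntl, the activator itself, stood at 7.99 and 7.82 in 2-week wild type, 7.96 and 7.58 in 2-week mutants, 7.99 and 7.17 in 4-week wild type, 6.90 and 7.26 in 4-week mutants, 7.30 and 7.39 in 6-week wild type and 6.62 and 7.08 in 6-week mutants. All 6-week arrays lay below all 2-week arrays, and Arntl fell by 0.74 ± 0.20 (limma adjusted p = 0.031), or by 0.83 without 2-week mutant replicate 3. The call was lost without 2-week wild-type replicate 1 or 2, 2-week mutant replicate 2, either 6-week wild-type array or 6-week mutant replicate 3, where the values lay between -0.78 and -0.62. Npas2, which can stand in for CLOCK, stood at 5.33 and 5.93 in 2-week wild type, 5.42 and 5.19 in 2-week mutants, 6.31 and 5.14 in 4-week wild type, 4.74 and 5.82 in 4-week mutants, 4.20 and 5.52 in 6-week wild type and 4.25 and 4.19 in 6-week mutants. The lowest values were 3 of the 4 arrays of 6 weeks, and 6-week wild-type replicate 3 lay among the younger arrays. The difference from 2 to 6 weeks was -0.93 ± 0.38 and did not pass (limma adjusted p = 0.11), or -0.99 without 2-week mutant replicate 3.

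Cry1, the late repressor with the E-box printed above, had the narrowest range of the 10 members over the arrays, from 9.23 to 10.33. It stood at 9.76 and 9.83 in 2-week wild type, 9.83 and 9.70 in 2-week mutants, 9.23 and 10.33 in 4-week wild type, 9.37 and 9.76 in 4-week mutants, 10.26 and 10.04 in 6-week wild type and 10.09 and 9.96 in 6-week mutants. Its lowest and its highest value came from the 2 arrays of 4-week wild type. The difference from 2 to 6 weeks was 0.31 ± 0.21 (95% interval -0.17 to 0.79, limma adjusted p = 0.31), or 0.28 without 2-week mutant replicate 3.

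The rise from 2 to 6 weeks was present in wild type alone, though with fewer calls. On the wild-type arrays Dbp rose by 2.73, Per3 by 2.23, Tef by 1.08 and Nr1d2 by 0.73 from 2 to 6 weeks, with limma adjusted p = 0.013 for Dbp, 0.043 for Per3 and Nr1d2 and 0.0405 for Tef, or 4 of 10 members beside 5.5% of tested genes. On these arrays Per2 (1.68, adjusted p = 0.20) and Arntl (-0.56, adjusted p = 0.25) did not pass in limma. From 2 to 4 weeks no member passed in wild type alone in limma, beside 0.634% of tested genes, and Dbp was at 1.66 (adjusted p = 0.059). The 2 wild-type arrays of 4 and 6 weeks that share the lowest array number range (2 to 8) differed by 3.35 for Per2, 1.48 for Dbp, 1.34 for Per3, -2.11 for Npas2 and -0.68 for Arntl. The pair that shares the range 17 to 20 differed by 0.33 for Per2, 0.66 for Dbp, 0.27 for Per3, 0.38 for Npas2 and 0.21 for Arntl. Each is a difference of single arrays, with no test.

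**Figure D2:**
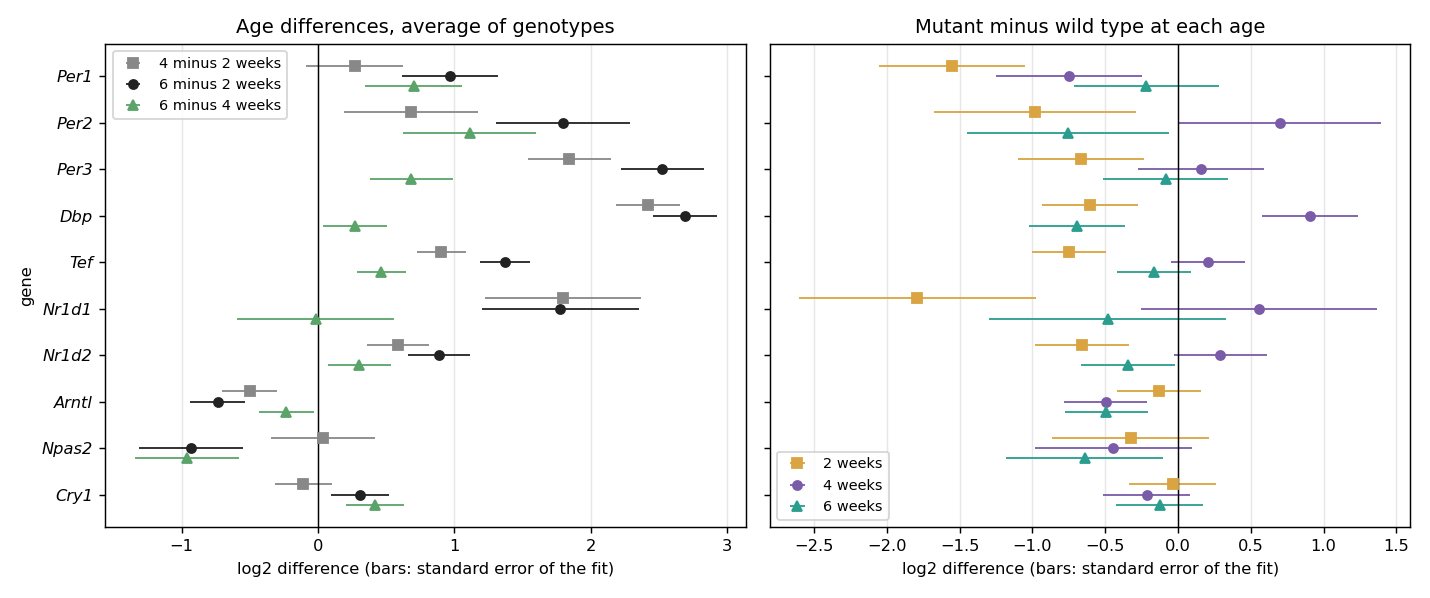
Fitted log2 differences of the 10 clock genes between ages, averaged over genotypes (left), and between mutant and wild type at each age (right). Points are limma estimates and bars their standard error; Dbp and Per3 are 2.69 and 2.52 higher at 6 than at 2 weeks, while the genotype difference of Dbp is 0.91 at 4 weeks and -0.69 at 6 weeks.

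Marker levels moved with age as well. The 4 adipocyte markers measured had a mean level of 7.02 to 7.98 on the 2-week arrays, 9.23 to 9.99 at 4 weeks and 9.65 to 10.43 at 6 weeks. All 4 were called upward in both intervals from 2 weeks, beside 6.83% of tested genes to 4 weeks and 17.7% to 6 weeks. The mean of the keratinocyte list stayed between 15.09 and 15.43 and that of the fibroblast list between 14.42 and 15.01 on all 12 arrays. Single genes of these lists were called from 2 to 6 weeks, Krt14 (0.24) and Dcn (0.34) upward and Krt1 (-0.81) and Col1a1 (-0.84) downward. Without 2-week mutant replicate 3 these were 0.18, 0.25, -0.71 and -0.82, and the calls of Krt14, Dcn and Krt1 were lost. The muscle list stood at 12.94 to 13.18 at 2 weeks outside mutant replicate 3 and at 13.05 to 13.95 later. Of 6 cartilage genes tested, Comp (3.27) and Acan (1.20) were called upward and Col2a1 (-2.59) and Col9a1 (-1.12) downward from 2 to 6 weeks. Without 2-week mutant replicate 3 these were 2.25, 0.72, -2.65 and -1.48. Of 9 hair shaft genes tested, Krt33a was called downward in both intervals, at -5.69 and -4.71, or -3.77 and -2.79 without that array. The median of the 9 was -3.38 and -3.41, so a single call does not mean that 1 gene alone differed. Without that array Krt31 stood at -2.11, Krt33b at -1.54 and Krt81 at -1.41 from 2 to 6 weeks. Msx2 (0.69) and Dlx3 (0.79) were then positive, and every other tested gene of the list negative. The part of cell composition in the clock differences was not tested.

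Genes of the clock outside these 10 members moved with age too. Of 15 listed genes 13 were measured and 11 tested, and from 2 to 6 weeks 7 were called upward and 1 downward, beside 17.7% and 6.35% of all tested genes. Ciart, a repressor of the CLOCK and ARNTL pair, rose by 2.27 ± 0.33. Bhlhe40, which competes for E-boxes, rose by 1.97 ± 0.13 and the PAR bZIP gene Hlf by 1.54 ± 0.45. Cry2, a repressor, rose by 1.04 ± 0.14, and Rora, which activates Arntl, by 0.88 ± 0.15. Csnk1d, the kinase that marks PER proteins, rose by 0.70 ± 0.07 and Clock by 0.48 ± 0.13. Nfil3, the repressor at D-boxes, was the downward call, and fell by 1.72 ± 0.32. From 2 to 4 weeks 5 were called upward and Nfil3 downward (-1.95 ± 0.32), beside 6.83% and 2.7%. When 2-week mutant replicate 3 was left out, the same 5 and Nfil3 were called to 4 weeks, and to 6 weeks the calls were as above except that Hlf did not pass (1.02, limma adjusted p = 0.055). No gene of this list was called between genotypes on average.

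Nfil3 shows the pattern array by array. It stood at 8.59 and 8.96 in 2-week wild type, 8.56 and 9.55 in 2-week mutants, 7.59 and 7.55 in 4-week wild type, 5.73 and 6.97 in 4-week mutants, 6.71 and 6.96 in 6-week wild type and 7.93 and 7.18 in 6-week mutants. All 2-week arrays lay above all later arrays. Its lowest value came from 4-week mutant replicate 1, the array with the highest Nr1d1 (10.19).

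A further list held 10 genes often described as clock-controlled. Of its 9 tested members none was called from 2 to 4 weeks in limma, Pim3 alone had an unadjusted p under 0.05 (0.53 ± 0.14), and 3 were called upward from 2 to 6 weeks, beside 17.7% of all tested genes called upward. Of all tested genes 9.53% were called from 2 to 4 weeks, and 28.1% had an unadjusted p under 0.05. The 3 called were the kinase gene Pim3 (0.53 ± 0.14), the tetraspanin gene Tspan4 (0.66 ± 0.19) and Lonrf3 (0.80 ± 0.19), the last called present on 1 of 12 arrays. Wee1, a mitotic kinase, and Klf9, a zinc finger factor, stood at 0.67 ± 0.34 and 0.79 ± 0.35 without passing. The calls without 2-week mutant replicate 3 were Nampt (-0.54) and Lpin1 (-0.40) to 4 weeks, and Pim3 (0.37), Lonrf3 (0.65) and Nampt (-0.34) to 6 weeks. Among 8 genes induced by glucocorticoids the metallothionein gene Mt2 was the single call from 2 to 4 weeks (-0.68 ± 0.14), and from 2 to 6 weeks none of them was called in limma (Mt2 alone had an unadjusted p under 0.05), beside 24.1% of all tested genes called and 38.7% at an unadjusted p under 0.05. On leaving out 2-week mutant replicate 3, 5 of the 8 were called downward to 4 weeks, beside 13% of tested genes in either direction, namely Fkbp5 (-2.53), Zbtb16 (-1.47), Tsc22d3 (-1.30), Mt1 (-0.86) and Mt2 (-0.77). Fkbp5 (-1.84), Mt1 (-0.48) and Mt2 (-0.49) were then also called downward to 6 weeks, beside 26.1%. With the array included Fkbp5 stood at -1.65 and -0.96. Of 10 immediate early and stress genes none was called in either interval in limma (2 and 7 had an unadjusted p under 0.05), nor without 2-week mutant replicate 3 (1 and 3), with Fosb at 3.00 ± 1.22 and Dusp1, a phosphatase of MAP kinases, at 1.05 ± 0.36 from 2 to 6 weeks.

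To summarise the members per array, the mean deviation of Per1, Per2, Per3, Dbp, Tef, Nr1d1 and Nr1d2 from their own means was set against that of Arntl, Npas2 and Cry1. This clock difference was -0.50 and -1.05 in 2-week wild type and -1.01 and -2.21 in 2-week mutants. It was -0.63 and 0.38 in 4-week wild type, 0.86 and 0.26 in 4-week mutants, 1.21 and 0.71 in 6-week wild type and 1.05 and 0.94 in 6-week mutants. The 2-week arrays and 4-week wild-type replicate 1 were negative and the other 7 arrays positive. At 6 weeks the mutants lay between the wild-type arrays, and at 4 weeks mutant replicate 2 did. In 2-week mutant replicate 3 the 7 genes were at -2.20 while Arntl, Npas2 and Cry1 together were at 0.01, so its low value came from the first group of genes. Genes averaged together did not always move together, so the clock difference is not a measure of phase. In 2-week wild-type replicate 1 Per1 deviated by 0.60 and Nr1d1 by 0.03, but Dbp by -1.25 and Per3 by -0.86. From 2 to 6 weeks Cry1 differed by 0.31 ± 0.21 and Arntl, averaged with it, by -0.74 ± 0.20.

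**Figure D3:**
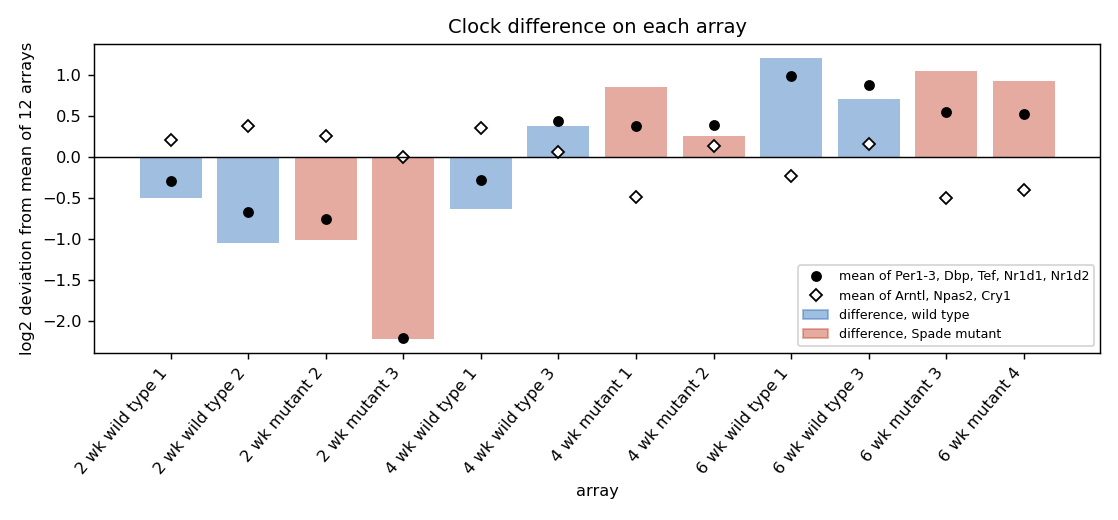
Clock difference on each array in log2 units. Bars are the mean deviation of 7 genes (dots) minus the mean deviation of Arntl, Npas2 and Cry1 (diamonds), coloured by genotype; bars run from -2.21 in 2-week mutant replicate 3 to 1.21 in 6-week wild-type replicate 1.

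Replicates of a group also differed in these genes. In 4-week wild type, Per2 was 2.22 lower in replicate 1 than in replicate 3, a gap wider than that of 99.9% of tested genes in that pair. In the same pair Per3 was 1.20 lower, Cry1 1.09 lower and Dbp 0.61 lower in replicate 1, while Npas2 was 1.16 higher and Arntl 0.81 higher. Npas2 and Arntl thus went the other way from Per2, Per3, Cry1 and Dbp, and Nr1d1 went with Arntl (0.36 higher in replicate 1). The replicates also differed in immediate early genes, which respond to stimulation within minutes. Fos stood at 10.08 in replicate 1 and 13.27 in replicate 3, Fosb at 2.71 and 8.99, and the mean of 10 immediate early and stress genes at 9.86 and 11.46. Their part in the gap was not tested.

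In the 2-week mutants, replicate 3 was lower than replicate 2 by 3.25 for Nr1d1, 1.55 for Per2, 1.22 for Nr1d2, 1.14 for Per3, 1.09 for Dbp and 1.04 for Per1. Arntl, Npas2 and Cry1 differed less and in the same direction (0.38, 0.23 and 0.13). Genes induced by glucocorticoids, a hormone signal with its own daily rhythm, were also low on that array. Fkbp5, a chaperone of the receptor, stood at 8.55 there and at 11.85, 12.12 and 12.08 on the other 2-week arrays, and the mean of 8 such genes at 11.33 against 12.67 to 12.87. The array also had a mean interferon-stimulated level of 7.32 (3.86 to 5.20 on the other 2-week arrays), a mean macrophage level of 10.85 (9.84 to 10.07) and a mean cartilage level of 7.71 (9.71 to 9.95). Whether these levels, or the low muscle and high hair levels, have a part in its clock gene levels was not tested.

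Over the 6 groups, 23 of 60 gaps between replicates of a member exceeded the 90th percentile of all tested genes in the same pair, a limit that 10% of genes exceed by construction. The counts were 5 in 2-week wild type, 6 in 2-week mutants, 6 in 4-week wild type, 3 in 4-week mutants, 2 in 6-week wild type and 1 in 6-week mutants. The median gap of members was 1.07 in 2-week mutants and 0.71 in 4-week wild type, beside 0.30 and 0.19 for all genes. It was 0.16 and 0.10 in the 6-week groups, beside 0.19 and 0.17. In 4-week mutants the widest gap was that of Per1 (1.54 lower in replicate 1), and in 6-week wild type that of Npas2 (1.32 lower in replicate 1). Dbp and Arntl differed in opposite directions between replicates in 3 of the 6 groups, namely 4-week wild type, 4-week mutants and 6-week wild type.

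**Figure D4:**
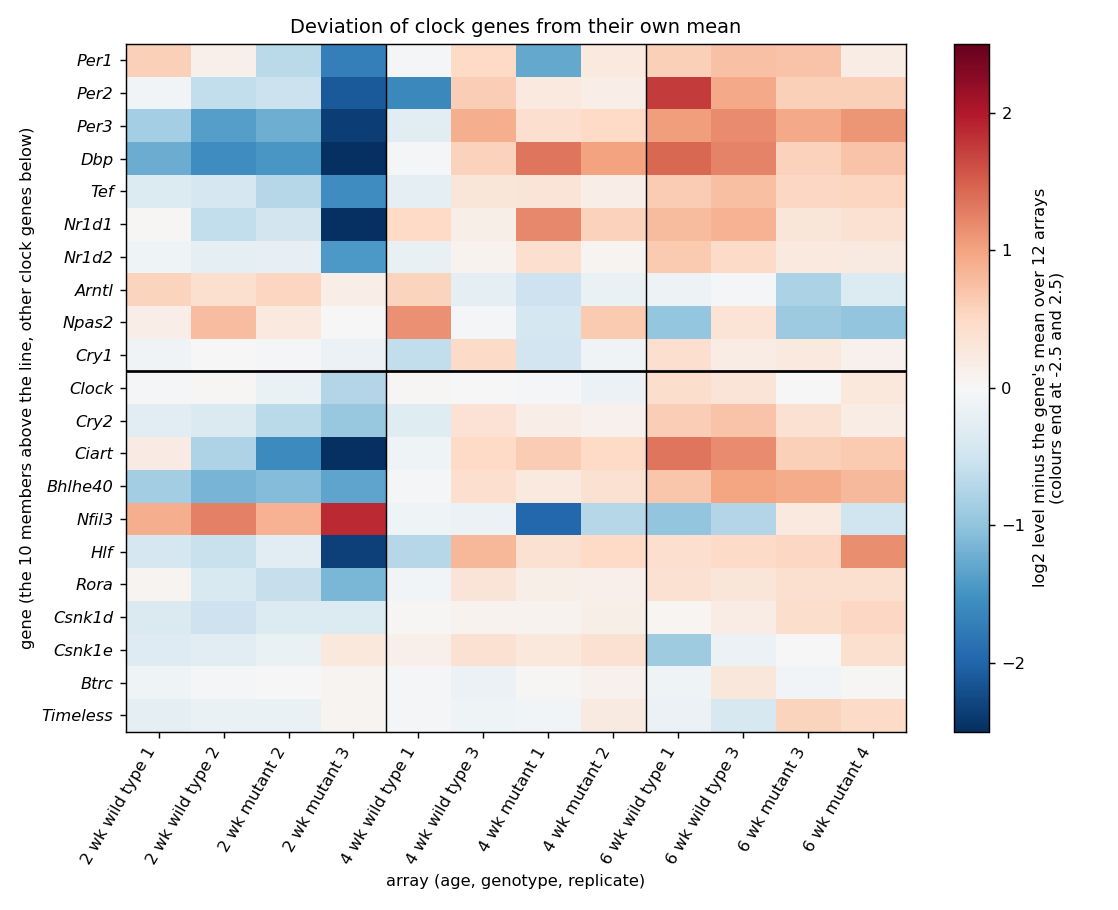
Deviation of each clock gene (rows) from its own mean over the 12 arrays (columns, in order of age, genotype and replicate), in log2 units from blue (below) to red (above), with colours ending at -2.5 and 2.5. The 10 members stand above the black line and 11 other tested clock genes below it; 2-week mutant replicate 3 is the lowest array for Per1, Per2, Per3, Dbp, Tef, Nr1d1 and Nr1d2, and Nfil3 is highest there at a level of 9.55.

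Across arrays, the relation of each other member with Arntl was examined for 9 genes. Npas2 rose with Arntl over the 12 arrays (Pearson r = 0.71, Spearman rho = 0.70, two-sided permutation p = 0.011 and 0.014), but neither value passed after adjustment over 9 relations (0.062 and 0.093). Without the 2 arrays farthest from the Arntl median r was 0.54, and with age means subtracted it was 0.70 (adjusted permutation p = 0.11). Over the 8 arrays of 4 and 6 weeks r was 0.75 (rho = 0.60, exact permutation p = 0.023 and 0.13, adjusted 0.20 and 0.98), and 0.39 without the 2 farthest arrays, so that value rests on those arrays. For Dbp and Per3 the 2-week arrays stand apart from the rest, so no pooled value is given. Over the 8 later arrays r was -0.38 for Dbp (rho = 0.02, exact permutation p = 0.36 and 0.98, adjusted 0.46 and 0.98) and -0.58 for Per3 (rho = -0.02, exact p = 0.15 and 0.98, adjusted 0.38 and 0.98). Without the 2 farthest arrays these were 0.13 and 0.56, of the other sign. None of the 9 relations passed over 12 arrays, over the 8 later arrays or with age means subtracted. Each array number range holds 4 arrays, too few for a value of its own.

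**Figure D5:**
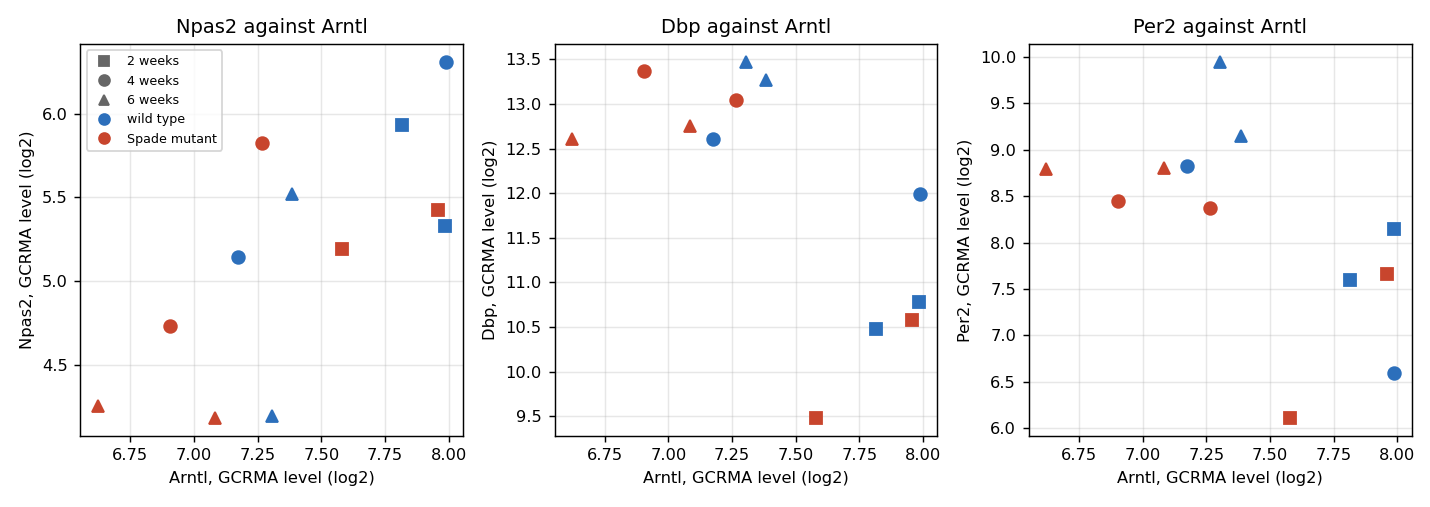
Level of Npas2, Dbp and Per2 (vertical axes) against that of Arntl (horizontal axis), all log2 GCRMA values, on 12 arrays. Shape gives age and colour genotype; the array with the highest Arntl, 4-week wild-type replicate 1 at 7.99, has the highest Npas2 (6.31), and the 2-week arrays (squares) have the lowest Dbp.

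Between genotypes no member passed. Averaged over the 3 ages 0 of 10 members were called in limma, beside 0.643% of tested genes, and 1 member, Per1, had an unadjusted p under 0.05, beside 1777 tested genes. All 10 differences, mutant minus wild type, were negative, from -0.84 to -0.13, with a median of -0.29 beside -0.03 for all tested genes. Per1 was at -0.84 ± 0.29 (6 arrays per genotype, limma adjusted p = 0.24), with lower mutant means at all 3 ages but overlapping arrays at 4 and 6 weeks. For Dbp the difference was -0.13 (95% interval -0.56 to 0.30) and for Arntl -0.37 (-0.75 to 0.0014). Without 2-week mutant replicate 3 the median was -0.09, with 9 negative values and Dbp at 0.05, while Per1 was at -0.67 and Arntl at -0.31. Without replicate 2 instead, which leaves replicate 3 alone in its group, Nr1d1 (-1.11) and Nr1d2 (-0.44) were called in limma with adjusted p = 0.0063 and 0.022, 2 of 10 beside 8.93% of tested genes.

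At 2 weeks 0 members and 0% of tested genes were called in limma, with Per1 and Tef among 972 genes at an unadjusted p under 0.05. The differences were all negative, with a median of -0.66 beside -0.04 for all tested genes. Nr1d1 was at -1.79 ± 0.81, Per1 at -1.55 ± 0.50 and Per2 at -0.98 ± 0.69 (2 arrays per group). Without replicate 3 these were -0.16, -1.04 and -0.21, and the median was -0.13, with 8 negative values and 2 positive. Both mutants lay below both wild-type arrays for Per1 and Tef, 2 of 10 beside 22.4% of tested genes. Without replicate 2 instead, 4 members were called in limma, beside 9.9% of tested genes, namely Nr1d1 at -3.42, Nr1d2 at -1.27, Tef at -1.17 and Dbp at -1.15. The interferon-stimulated list stood at 5.20 and 7.32 in 2-week mutants and 3.86 and 4.55 in wild type, the macrophage list at 10.07 and 10.85 against 9.88 and 9.84, and the neutrophil list at 6.88 and 6.18 against 5.33 and 5.84, and their part was not tested.

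At 4 weeks 0 members and 0% of tested genes were called in limma, with Dbp among 432 genes at an unadjusted p under 0.05. Dbp was at 0.91 ± 0.33 (adjusted p = 1.0), Per2 at 0.70 ± 0.69, Nr1d1 at 0.56 ± 0.81 and Per1 at -0.75 ± 0.50. For Dbp and Nr1d1 both mutants exceeded both wild types, 2 of 10 beside 16.1% of tested genes, and no member lay wholly below, beside 15.9%. Of the 10 differences 6 were positive, and without wild-type replicate 1 they were 4. With the mean of each gene's probe sets 3 were positive. Against that replicate, the wild-type array in their array number range, the mutants were 1.81 higher for Per2 and 1.21 higher for Dbp, while Arntl was at -0.90 and Npas2 at -1.03. Against the other wild-type array these were -0.41 for Per2, 0.60 for Dbp, -0.09 for Arntl and 0.14 for Npas2, so Per2 and Npas2 changed sign. Immune marker levels differed at this age too: the interferon-stimulated list stood at 5.57 and 6.66 in mutants and 4.13 and 4.54 in wild type, the macrophage list at 10.25 and 10.39 against 9.98 and 9.64, and the neutrophil list at 5.07 and 6.79 against 4.88 and 4.83. Their part in the member differences was not tested.

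At 6 weeks 0 members were called in limma, beside 0.0334% of tested genes, and no member was among 1426 genes at an unadjusted p under 0.05. All 10 differences were negative, with a median of -0.41 beside -0.04 for all tested genes. With the mean of each gene's probe sets 9 were negative and 1 positive. The second probe set of Tef stood at 0.74 ± 0.50 and that of Nr1d2 at 0.21 ± 0.42, so for these genes the sign depends on the probe set. Per2 was at -0.75 ± 0.69, Dbp at -0.69 ± 0.33 (adjusted p = 0.46), Npas2 at -0.64 ± 0.54 and Arntl at -0.49 ± 0.29. Both mutants lay below both wild-type arrays for 6 members, Per2, Dbp, Tef, Nr1d1, Nr1d2 and Arntl, beside 25.7% of tested genes, and above for none, beside 19.8%. Genes of opposite phase, Dbp and Arntl, thus lay on the same side. Against the wild-type array of their own array number range (replicate 3), the mutants were also lower for all 10, with a median of -0.32. The mean levels of the 3 immune lists were higher in both 6-week mutants than in both wild types. The mean of 4 measured neutrophil markers was 6.89 and 7.54 in mutants against 4.39 and 4.33 in wild type, that of 6 interferon-stimulated genes 6.90 and 7.02 against 4.54 and 4.50, and that of 8 macrophage markers 10.66 and 10.46 against 9.71 and 9.18. The cartilage list stood at 9.84 and 9.25 in mutants against 10.04 and 10.24 in wild type. The adipocyte list stood at 10.15 and 9.65 against 10.39 and 10.43. The muscle, hair shaft, keratinocyte and fibroblast lists overlapped between genotypes. The part of these marker levels in the lower member values was not tested.

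The change of the genotype difference between ages was tested directly. No member and 0% of tested genes were called in limma for any of the 3 pairs of ages, with 331, 351 and 654 tested genes at an unadjusted p under 0.05. From 4 to 6 weeks the genotype difference of Dbp changed by -1.60 ± 0.47 (95% interval -2.66 to -0.54, unadjusted p = 0.0079 and adjusted p = 1.0 in limma). From 2 to 4 weeks it changed by 1.51 ± 0.47, and that of Tef by 0.95 ± 0.36, or by 0.96 and 0.53 without 2-week mutant replicate 3. The rank product criterion that the series' design text names called no member on average or at any age. It called 0.809% of tested genes on average, 0.0334% at 2 weeks, 0.134% at 4 weeks and 0.442% at 6 weeks. The limit on its estimated false discovery rate was 0.001 on average and 0.05 at each age, so these shares differ in threshold.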

How the data were processed

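RNA of 12 whole ear samples was measured on 12 arrays of 45101 probe sets. Per the submitters' processing notes and the labels, the authors made the deposited log2 values with GCRMA, in a version not given in the sources used here. GCRMA corrects background, quantile-normalizes arrays and summarises probe sets, so low levels are compressed towards the floor of 2.14. The authors also deposited MAS5 signals, intensity values on a linear scale, per the file headers. They gave the present calls and, above a floor of 50, an alternative scale.

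The annotation names 1 gene for 34958 probe sets, several for 932 and none for 9211, and each gene's probe set with the highest mean was kept. Genes with a value of at least 4 on 2 or more arrays were tested (11984). The model, fitted with limma 3.58.1 (R 4.3.3), had 6 group means, 6 residual degrees of freedom, a variance trend and Benjamini-Hochberg adjustment over all tested genes, with a threshold of 0.05. Correlations used 100000 permutations, or all orders for 8 arrays, in Python 3.11.15 with scipy 1.17.1. The rank product used 1000 permutations, a 2-fold minimum and an estimated false discovery rate under 0.05 at each age and 0.001 on average. The fit was tested on simulated data. The 10 members, the gene lists and the tests were chosen with earlier results of these data known. All members are named, with the called genes of the clock lists and examples chosen after their values were seen.

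Array numbers fall into the ranges 2 to 8, 17 to 20 and 23 to 27, read from the labels. What they record is not stated. Whether same-numbered replicates pair the samples could not be settled, since each age has a single such pair of arrays. The correlation of their deviations was -0.12 at 2 weeks, 0.19 at 4 weeks and 0.25 at 6 weeks. Fitted as a random block, same-numbered arrays had a consensus correlation of 0.43. The main fit did not model a pairing. Alternatives were another filter, probe set rule or normalization, MAS5 signals, array weights, a block, fewer arrays and each array left out. Using wild-type arrays alone, and 8 arrays for correlations, were added after the data were seen.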

Additional observations from a re-analysis of the deposited data

Results flagged for a closer look

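Dbp was higher in both mutants than in both wild-type arrays at 4 weeks and lower in both at 6 weeks, so the genotype difference changed by -1.60 on the log2 scale (limma adjusted p = 1.0, not past the threshold). Nr1d1 showed the same order of arrays, with a change of -1.04 (limma adjusted p = 1.0). For both genes the arrays of each age moved to opposite sides, and the test of the change itself did not pass. Of all tested genes 16.1% lay wholly above at 4 weeks and 25.7% wholly below at 6 weeks, and the share doing both was not counted. For Nr1d1 at 4 weeks the separation was narrow, with the lower mutant array at 9.57 and the higher wild-type array at 9.50.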

How the results depend on the processing

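With 2 arrays per group, leaving out 1 array leaves its partner alone, and the fit then assumes that this array varies like the other groups. Counts over all tested genes moved with these settings too, and their ranges stand in the next paragraph. The member counts are therefore not results about the members alone. From 2 to 6 weeks 6 members were called, beside 24.1% of tested genes. The count was 3 (Per3, Dbp and Tef) with no filter on low values, where more genes are tested, and ran from 3 to 7 over the 12 single omissions. It was 3 without 2-week wild-type replicate 1 or 2, 6-week wild-type replicate 1 or 3, or 6-week mutant replicate 3. From 2 to 4 weeks 3 members were called, beside 9.53% of tested genes. The count was 1 with the mean of each gene's probe sets, 0 on wild-type arrays alone, and ran from 1 without 2-week wild-type replicate 2 to 5 without 2-week mutant replicate 2. With the mean of probe sets the Tef difference was -0.020, since its second probe set moves the other way. Without 2-week mutant replicate 2, members were called between genotypes: the count ran from 0 to 2 on average, 0 to 4 at 2 weeks, 0 to 4 for the change from 2 to 4 weeks and 0 to 1 for that from 2 to 6 weeks, and the upper value came from that omission in each case. For the genotype differences at 4 and 6 weeks, their change between these ages, and the age difference from 4 to 6 weeks, no alternative moved the count from 0.

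A random replicate block (consensus correlation 0.43) gave 5 members from 2 to 6 weeks, with Arntl not called, and 3 from 2 to 4 weeks. It called no member between genotypes. With array number range as a block the differences from 2 weeks could not be fitted, since all 2-week arrays share a range. Of 207 alternative values for called members, 164 stayed called in the same direction, 42 kept the direction without the call and 1 changed sign. Over all tested genes the number called ranged across alternatives from 2 to 1070 between genotypes on average (77 in the report), from 0 to 1187 at 2 weeks (0), from 0 to 16 at 4 weeks (0), from 0 to 68 at 6 weeks (4), from 76 to 2479 from 2 to 4 weeks (1142) and from 572 to 5701 from 2 to 6 weeks (2885), the highest of the last pair with every probe set tested. The changes of the genotype difference reached 345, 10 and 372 genes, and 4 to 6 weeks 14.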

Other observations

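Among 11974 other tested genes, the levels closest to the clock difference over the 12 arrays were those of Il7, a survival cytokine of lymphocytes (r = 0.96), the kinase gene Snrk (0.96), Ahnak2 (0.95), Stx17, a syntaxin of autophagy (0.95), and the channel gene Trpc1 (0.95). The most opposed were Igf2bp3, an RNA-binding protein of fetal tissue (-0.97), Chodl (-0.96), the chemokine gene Cxcl14 (-0.96), the growth factor gene Igf2 (-0.96) and Myh8, the perinatal myosin of muscle (-0.95). Over the 8 arrays of 4 and 6 weeks these values were 0.80 to 0.87 and -0.97 to -0.81. They describe arrays that share age, range and tissue makeup, and the median over all genes was 0.20.

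Probe sets of a gene did not always move together. Over 12 arrays the second Dbp probe set followed the main probe set at r = 0.99, and 3 further Per3 probe sets past the filter at 0.69 to 0.85. The second probe sets of Per2 (0.11) and Nr1d2 (0.17) hardly followed, and that of Tef ran against it (-0.43).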
